A study of Saccharomyces cerevisiae with 15 samples.

Results

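The rpc128-1007 mutant of Saccharomyces cerevisiae suppressed by plasmid-borne RBS1 was compared with the complemented control to describe which mRNAs still differed after suppression. The 6 libraries of these strains, 3 of [RBS1] and 3 of wt, were chosen by their labels from the 15 libraries of the series, and 5851 of 6600 counted genes were tested. Poly(A)-selected RNA was sequenced from separate cultures of 5 strains, grown overnight in selective medium and then, with no treatment, to the log phase in the rich medium YPD. [RBS1] was rpc128-1007 (strain MJ15-9C, of mating type MATa, with SUP11 and mutations in his3, leu2, lys2, ura3 and ade2) carrying RBS1 on the multicopy LEU2 vector YEp181. The strain written wt was the same mutant carrying native RPC128, listed in the counts as RET1, on the centromeric URA3 plasmid pLH3, so the control also kept the mutant chromosomal allele. The other strains, which appear here only beside these, were rpc128-1007[-] (the mutant with an empty vector), [PRT1] (the mutant with plasmid-borne PRT1) and [RBS1-R3H] (the mutant with RBS1 whose R3H domain is inactive). The plasmid marker and the overnight medium differed between [RBS1] and wt together with the suppressor, and their parts in any difference cannot be told apart in this comparison.

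RNA polymerase III makes the tRNAs and the smallest ribosomal RNA, and Rpc128 is one of its large catalytic subunits. The rpc128-1007 allele impairs the assembly of the enzyme. Rbs1 is an RNA-binding protein with an R3H domain that aids this assembly when overproduced. When amino acids or tRNA charging fail, yeast raises translation of the activator Gcn4, which induces genes of amino acid biosynthesis, while Leu3 controls genes of the leucine branch according to the level of a pathway intermediate and Pho4 controls genes of phosphate uptake.

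LEU1 and OAC1, of the leucine pathway, were the 2 lowest genes of [RBS1] against wt by the naming rule. The sequence that Leu3 is known to bind has the form CCGG, any 2 bases and CCGG again, which reads the same on both strands. In the 600 bases before the start codon of 5699 tested genes with a position in the R64 reference, searched on both strands, this form was found before 20 genes, which is 0.351% of the windows. This form was found before 5 of the 13 listed genes of leucine, isoleucine and valine synthesis. It was found before 9 of 250 genes that were lower in [RBS1] (3.6%) and before 1 of 381 genes that were higher (0.262%), where a gene is called at an adjusted p under 0.05. These 10 sites are shown because they stand before the genes described next. Each is written 5′ to 3′ on the strand of its gene, with R64 coordinates and the motif in capitals.

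LEU1, chrVII:478850-478879, minus strand: aacgaaaattCCGGGACCGGcgaaatttgc
BAT1, chrVIII:517375-517404, plus strand: attgtgtttgCCGGTACCGGcctttaagct
BAP2, chrII:376057-376086, minus strand: ttttgtgggaCCGGAACCGGcatccacatt
DRE2, chrXI:576128-576157, minus strand: ttgacatatcCCGGTACCGGaataagtccg
FSF1, chrXV:832176-832205, minus strand: gtactggcgtCCGGTACCGGagcgtaccag
ILV5, chrXII:839611-839640, minus strand: gcggtctcctCCGGTACCGGttctgccacc
GAT1, chrVI:95939-95965, plus strand: tgtgccactcCCGGCCCCGGtattagc
GDH1, chrXV:1043427-1043456, minus strand: aaccaatgcgCCGGAACCGGcccatgcatt
ILV2, chrXIII:483606-483635, plus strand: ccggagcctgCCGGTACCGGcttggcttca
LEU2, chrIII:91116-91145, plus strand: ggtgagagcgCCGGAACCGGcttttcatat

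The site of GDH1 lies within the annotated reading frame YOR376W, and the other 9 lie outside annotated genes. OAC1 and ALD5 held only the looser form CCG, any 4 bases and CGG, which includes every match of the stricter form and was found in 219 windows (3.84%), 27 of the 250 of lower genes (10.8%) and 18 of the 381 of higher genes (4.72%). Their sites are shown because both genes were lower in [RBS1].

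OAC1, chrXI:216850-216879, plus strand: ccgaaagatgCCGGAAACGGtcttaggccg
ALD5, chrV:303528-303557, plus strand: ttttttttggCCGCTACCGGactagcaagg

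The core of the Pho4 site, CACGTG, was found in 420 of the 5699 windows (7.37%), among them 18 of the 26 windows of phosphate genes, with shares of 8.4% among lower and 8.14% among higher genes. The sites of the 3 called phosphate genes with the largest decreases are shown.

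PHO5, chrII:431187-431216, minus strand: ccttggcactcaCACGTGggactagcacag
PHM6, chrIV:1022583-1022612, minus strand: gagcttcgctgaCACGTGggaggtgggata
VTC1, chrV:302637-302666, plus strand: aatagatattagCACGTGtctcggagagaa

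A match describes the letters of a window and says nothing on whether a factor binds there.

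The 6 libraries held between 7767726 and 11878873 counts (7794547 to 11878873 in [RBS1], 7767726 to 9232033 in wt). Levels are given as CPM, a gene's count scaled to a library of 1e+06 counts with trimmed-mean (TMM) factors, and differences as log2 fold changes of [RBS1] over wt with their standard error (SE) from edgeR's quasi-likelihood fit. The [RBS1] libraries differed by gene length. The deviation of replicate 2 from the strain mean had a Spearman coefficient of 0.501 with gene length across 5699 genes. Replicates 1 and 3 had -0.274 and -0.457, and wt libraries -0.029 to 0.024. Deviations within a strain offset each other, so these values are not independent. Such trends were not confined to [RBS1]: replicates 1 to 3 of rpc128-1007[-] had -0.325, 0.559 and -0.383, and those of [PRT1] had 0.424, 0.043 and -0.460. Short genes were low in [RBS1] replicate 2, with MFA1 at 25.9 CPM, against 166 and 161 CPM in the other [RBS1] libraries and 199 to 234 CPM in wt. Of the a-cell markers of this MATa strain, 0 of 7 were called by edgeR, 1 had an unadjusted p under 0.05 and 1 was called by DESeq2, and STE2, the alpha-factor receptor, had 631 to 666 CPM in [RBS1] and 519 to 599 CPM in wt. The alpha-specific gene SAG1, which encodes the alpha-agglutinin, was called, with 55.6 to 59.7 CPM in [RBS1] and 26.3 to 31.8 CPM in wt (1.00, SE 0.10, adjusted p = 4.5e-05). Of the 4 alpha-cell markers, 2 were called, both higher (50%, against 6.53% of all tested genes), and the median was 0.55. The other called marker was the alpha-factor gene MF(ALPHA)1, which lost its call without [RBS1] replicate 1, wt replicate 2 or wt replicate 3. Their part in the other results was not tested.

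Of the 5851 genes tested, 633 (10.8%) differed between [RBS1] and wt at an adjusted p under 0.05, of which 382 (6.53%) were higher and 251 (4.29%) lower. The changes were mostly small, with a median log2 fold change of 0.48 among the higher genes and -0.50 among the lower ones. More than 2-fold differences were seen in 41 higher and 31 lower genes. In CPM, the [RBS1] and wt libraries did not overlap for 1964 genes (33.6% of those tested), called or not. The count depended on the libraries: it was 276 without wt replicate 2, 333 without [RBS1] replicate 1, 336 without wt replicate 3, 373 without [RBS1] replicate 2 and 394 without wt replicate 1. For the same strain against rpc128-1007[-], 1737 genes (29.7%) were called, 737 higher (12.6%) and 1000 lower (17.1%), and for rpc128-1007[-] against wt, 1074 genes (18.4%), 745 higher (12.7%) and 329 lower (5.62%). Adding replicate number to the fit as a block gave 2220 for [RBS1] against rpc128-1007[-] and 1616 for rpc128-1007[-] against wt. Scaling by library totals turned these splits to 1125 higher and 715 lower in the first and 592 higher and 599 lower in the second. These comparisons share libraries with each other and with [RBS1] against wt.

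**Figure D1:**
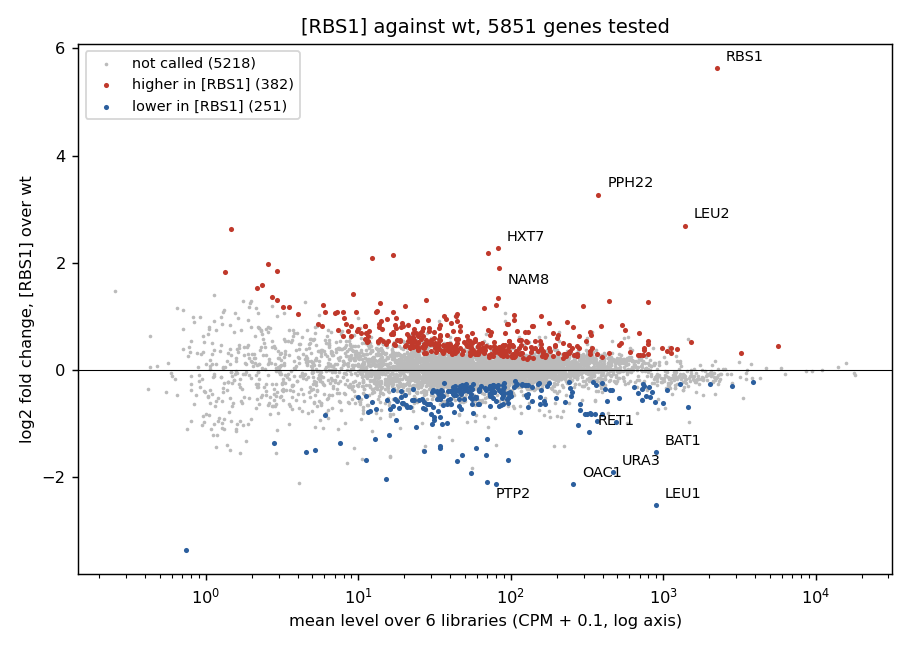
Log2 fold change of [RBS1] over wt against the mean level over the 6 libraries (CPM + 0.1, log axis), 1 point per tested gene. Red points are the 382 genes called higher, blue points the 251 called lower and grey points those not called. RBS1 lies highest, at 5.63, and LEU1 is the lowest of the labelled genes, at -2.52.

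The genes of the plasmids set the labels against the data. RBS1 had 4223, 4425 and 4582 CPM in [RBS1] libraries, against 83.8, 99.1 and 84.1 CPM in wt libraries (log2 fold change 5.63, SE 0.25, adjusted p = 1.03e-08). All [RBS1] libraries were far above all wt libraries. RET1, which encodes Rpc128, had 202, 212 and 186 CPM in [RBS1] libraries, against 473, 432 and 440 CPM in wt libraries, which carry an added plasmid copy (-1.16, SE 0.09, adjusted p = 1.8e-06). In rpc128-1007[-] RET1 had 192 to 230 CPM, and [RBS1] against that strain gave -0.05 (adjusted p = 0.71).

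Neighbours of the plasmid genes moved with them. PPH22, a catalytic subunit of protein phosphatase type 2A that lies next to RBS1 on the opposite strand, had 760, 325 and 952 CPM in [RBS1] libraries, against 67.4, 70.8 and 73.1 CPM in wt libraries (3.27, SE 0.32, adjusted p = 2.85e-05). It was lowest in the [RBS1] library that was low in short genes, yet every [RBS1] library exceeded every wt library. In [RBS1-R3H], which carries the same vector, PPH22 had 411 to 814 CPM. PTP2, a phosphotyrosine phosphatase next to RET1, had 29, 24.2 and 26.2 CPM in [RBS1] libraries, against 92.8, 123 and 122 CPM in wt libraries (-2.08, SE 0.14, adjusted p = 5.63e-07). The 9 libraries of the other mutant strains held 25.9 to 43.7 CPM of PTP2, below every wt library. Which flanking genes the plasmid inserts carry is not given in the sources used here. UFD2, on the other side of RBS1, was slightly lower in [RBS1] (-0.33, SE 0.07, adjusted p = 0.0109), and NOC2, near RET1, was not called (0.27, SE 0.14, adjusted p = 0.228).

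The marker genes followed the plasmids. LEU2, which encodes beta-isopropylmalate dehydrogenase of leucine synthesis, had 2259, 1898 and 3028 CPM in [RBS1] libraries, against 317, 372 and 421 CPM in wt libraries (2.69, SE 0.19, adjusted p = 1.19e-06). URA3, the orotidine-phosphate decarboxylase of pyrimidine synthesis, had 188, 220 and 183 CPM in [RBS1] libraries, against 746, 746 and 722 CPM in wt libraries (-1.91, SE 0.09, adjusted p = 1.4e-08). The strains did not overlap for either gene. [RBS1-R3H] had 3410 to 4429 CPM of LEU2 and 186 to 227 CPM of URA3, and rpc128-1007[-] had 685 to 898 CPM of LEU2 and 2028 to 2295 CPM of URA3. Marker levels thus also differed between [RBS1] and rpc128-1007[-], and their part in that comparison was not tested.

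Among the genes of at least 10 CPM whose strains did not overlap (587 called genes, 10% of those tested), the 2 lowest were of the leucine branch. LEU1, isopropylmalate isomerase, had 273, 274 and 248 CPM in [RBS1] libraries, against 1317, 1467 and 1777 CPM in wt libraries (-2.52, SE 0.14, adjusted p = 1.42e-07). OAC1, the mitochondrial carrier that exports isopropylmalate and takes up oxaloacetate, had 101, 82.1 and 102 CPM in [RBS1] libraries, against 395, 437 and 418 CPM in wt libraries (-2.13, SE 0.17, adjusted p = 4.07e-06). BAT1, the mitochondrial branched-chain aminotransferase, had 464, 472 and 440 CPM in [RBS1] libraries, against 1248, 1300 and 1442 CPM in wt libraries (-1.53, SE 0.12, adjusted p = 1.81e-06). In all 3 genes each [RBS1] library lay below each wt library, and the decrease kept its call in every alternative fit that was run. For LEU1 and OAC1 the lack of overlap was a condition for their rank.

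Of the 13 listed genes of leucine, isoleucine and valine synthesis, 7 (53.8%) were lower and 1 (7.69%), the marker LEU2, was higher, against 4.29% and 6.53% of all genes, and the median log2 fold change was -0.42, against 0.00 over all tested genes. The enzymes of the steps shared by isoleucine and valine fell less than LEU1: ILV5, the reductoisomerase, had -0.68 (adjusted p = 0.0104), ILV3, the dehydratase, -0.50 (adjusted p = 0.0128), and ILV2, the acetolactate synthase, -0.42 (adjusted p = 0.00739). BAT2, the cytosolic aminotransferase, had 203, 201 and 220 CPM in [RBS1] libraries and 266, 342 and 261 CPM in wt libraries (-0.48, SE 0.13, adjusted p = 0.0366). Its call was lost when any 1 [RBS1] library or wt replicate 2 was left out (adjusted p between 0.0575 and 0.149). The other members were not called: LEU4, alpha-isopropylmalate synthase, had -0.23 (adjusted p = 0.357), ILV1, threonine deaminase, 0.12 (adjusted p = 0.463), and ILV6, the regulatory subunit of acetolactate synthase, 0.37 (adjusted p = 0.24). LEU3 itself had 96.4 to 118 CPM in [RBS1] and 84.1 to 97.6 CPM in wt (0.22, SE 0.10, adjusted p = 0.186).

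The other called lower genes whose windows hold the stricter site are not enzymes of the pathway. BAP2, a permease for leucine, isoleucine and valine, had 335, 309 and 340 CPM in [RBS1] libraries, against 573, 623 and 743 CPM in wt libraries (-0.98, SE 0.10, adjusted p = 4.33e-05). DRE2, an iron-sulfur protein of the cytosolic assembly machinery, had 257, 225 and 249 CPM in [RBS1] libraries, against 433, 423 and 439 CPM in wt libraries (-0.82, SE 0.10, adjusted p = 0.000112). FSF1, a mitochondrial membrane protein, had 235, 257 and 232 CPM in [RBS1] libraries, against 413, 442 and 404 CPM in wt libraries (-0.80, SE 0.08, adjusted p = 3.8e-05). For these 3 genes, too, no [RBS1] library reached a wt library. GDH1, the glutamate dehydrogenase that makes glutamate, was lower (-0.50, adjusted p = 0.0127), and its call was lost without wt replicate 3 (adjusted p = 0.0533). GAT1, an activator of nitrogen-regulated genes, was lower (-0.54, adjusted p = 0.0175), with its call lost when [RBS1] replicate 1 (adjusted p = 0.0666) or 2 (0.054), or wt replicate 1 (0.0532) or 3 (0.0644), was left out. The remaining 10 of the 20 genes with the site were not called: DDR2 had -1.74 (adjusted p = 0.106), and BRO1, MGM101, AAN1, NPL3, GAL11, ATP5, HOR7, BFR2 and YML122C lay between -0.13 and 0.82. DRE2, FSF1 and the site counts were chosen after the values were seen.

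**Figure D2:**
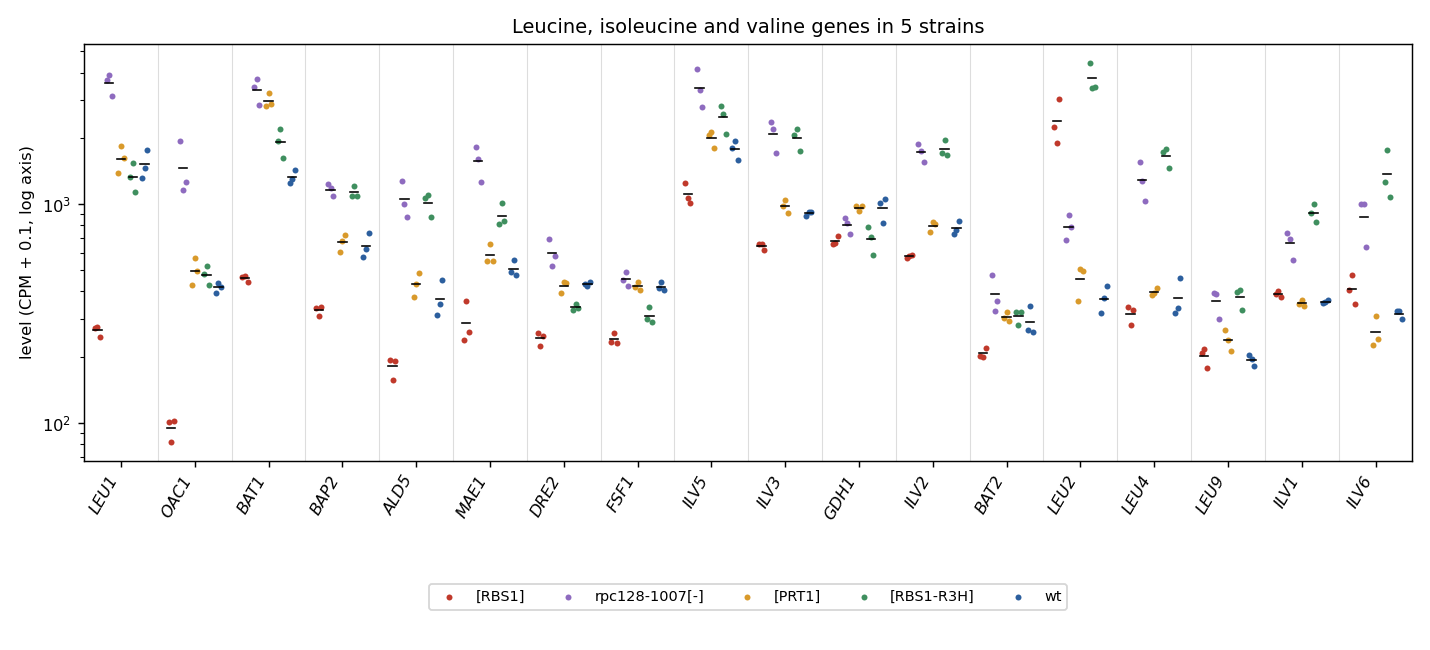
Levels of 18 genes of the leucine branch and neighbouring steps in each library of the 5 strains (CPM + 0.1, log axis), with points for libraries and black bars for means. LEU1, OAC1 and BAT1 were lower in all 3 [RBS1] libraries than in any other library shown.

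Set beside the other strains, these genes were lower in [RBS1] than in the control and higher in the mutant. LEU1 had 3124 to 3888 CPM in rpc128-1007[-], 1390 to 1838 CPM in [PRT1] and 1135 to 1544 CPM in [RBS1-R3H], against 1317 to 1777 CPM in wt. OAC1 had 1163 to 1957 CPM in rpc128-1007[-], 428 to 569 CPM in [PRT1] and 428 to 520 CPM in [RBS1-R3H], against 395 to 437 CPM in wt. [RBS1-R3H], which has the LEU2 vector of [RBS1], was near wt and below rpc128-1007[-] for both genes. The part of the vector in these levels was not tested. The fit gave [RBS1] against rpc128-1007[-] as -3.75 for LEU1 (adjusted p = 1.92e-09) and -3.95 for OAC1 (adjusted p = 6.4e-09), and rpc128-1007[-] against wt as 1.23 (adjusted p = 2.91e-05) and 1.81 (adjusted p = 8.62e-06). ALD5, a mitochondrial aldehyde dehydrogenase, and MAE1, the mitochondrial malic enzyme, were also lower in [RBS1] than in wt, at -1.03 (SE 0.16, adjusted p = 0.00188) and -0.82 (SE 0.16, adjusted p = 0.0065), while rpc128-1007[-] stood at 1.51 and 1.63 above wt.

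The rest of amino acid biosynthesis, pooled, had a median closer to the control but lay mostly above it. Outside the branched-chain genes, 6 of 90 tested genes were higher and 4 lower, against 6.53% and 4.29% of all genes, with a median of 0.17. Of these 90 genes, 69 had a positive log2 fold change and 36 an unadjusted p under 0.05, against 2973 and 1575 of all 5851 genes. Leaving out wt replicate 3 gave 13 higher and 2 lower, leaving out [RBS1] replicate 3, wt replicate 1 or wt replicate 2 gave 2 higher, and leaving out [RBS1] replicate 1 gave 3 higher. DESeq2 gave 16 higher and 5 lower, where it called 447 higher and 330 lower of all 5851 genes. The replicate block gave 13 higher and 4 lower, beside 624 and 542 of all genes. For rpc128-1007[-] against wt the same genes gave 66 higher and 4 lower, with a median of 0.91. ARG1, argininosuccinate synthetase, had 448, 310 and 491 CPM in [RBS1] libraries, against 169, 81.8 and 299 CPM in wt libraries (1.19, SE 0.34, adjusted p = 0.0426), and 1032 to 1661 CPM in rpc128-1007[-]. The call of ARG1 was lost in 4 of the 6 fits that left out 1 library, without [RBS1] replicate 1 (adjusted p = 0.112), [RBS1] replicate 3 (0.106), wt replicate 1 (0.11) or wt replicate 2 (0.108). All 10 arginine genes had a positive log2 fold change and 2 were called, ARG1 and ARG8, an acetylornithine aminotransferase (0.64, SE 0.17, adjusted p = 0.0312). The list had 0 calls without [RBS1] replicate 1, [RBS1] replicate 3, wt replicate 1 or wt replicate 2, 1 without [RBS1] replicate 2, 5 without wt replicate 3 and 6 by DESeq2. By edgeR, 0 of the 7 histidine, 8 lysine and 13 aromatic genes were called, where 4, 7 and 2 had an unadjusted p under 0.05 and DESeq2 called 3, 1 and 1. Without wt replicate 3, 2 histidine and 3 lysine genes were higher. The Gcn4 core TGACTC, on either strand, was in all 10 arginine windows and in 10 of the 13 branched-chain windows. It was in 889 of 5699 windows (15.6%), in 17.3% of those of higher genes and in 19.2% of those of lower genes. HIS4, of histidine synthesis, had 525, 537 and 572 CPM in [RBS1] libraries and 331, 290 and 501 CPM in wt libraries (0.54, SE 0.18, adjusted p = 0.0735), while LYS20, homocitrate synthase, had 0.59 (SE 0.22, adjusted p = 0.0968). Of 26 sulfur genes, 4 (15.4%, against 6.53% of all genes) were higher and 0 lower. Only 2 were higher without [RBS1] replicate 1, [RBS1] replicate 3, wt replicate 1 or wt replicate 2. MET13, a methylenetetrahydrofolate reductase, was the clearest of the 4, with 103, 74 and 100 CPM in [RBS1] libraries, against 40.6, 33.4 and 51.2 CPM in wt libraries (1.15, SE 0.19, adjusted p = 0.00256).

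GCN4 mRNA remained higher than in wt. It had 1378, 1296 and 1491 CPM in [RBS1] libraries, against 1035, 1075 and 1061 CPM in wt libraries (0.39, SE 0.07, adjusted p = 0.00451), and 1309 to 1446 CPM in rpc128-1007[-]. The [RBS1] and wt libraries did not overlap, and [RBS1] against rpc128-1007[-] gave 0.03 (adjusted p = 0.818). Among other genes named in the study from these data, SNZ1, of vitamin B synthesis, had 0.61 (adjusted p = 0.123), and RIB5, of riboflavin synthesis, 0.37 (adjusted p = 0.188). BNA1, of cofactor synthesis, had 0.28 (adjusted p = 0.312). GGC1, the mitochondrial GTP carrier, had 0.34 (adjusted p = 0.338), and ADH5, an alcohol dehydrogenase, 0.42 (adjusted p = 0.189). None of these was called. Values of HIS3, YMC1 and IGD1, which the study also names, are not given here.

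Genes of RNA polymerase III itself differed little. Of 17 genes for its subunits and the shared subunits, RET1 alone was called, as lower (5.88%, against 4.29% of all genes), and the median was 0.13. With a gene-length offset and a replicate block in the fit, 7 of these were higher, beside 782 of all 5851 genes. Of 17 genes for its factors, 0 were called by edgeR and by DESeq2, and 2 had an unadjusted p under 0.05. RPB10, a subunit shared by all 3 nuclear polymerases whose mRNA Rbs1 is known to bind, had 253, 132 and 248 CPM in [RBS1] libraries and 212, 220 and 187 CPM in wt libraries (0.03, SE 0.26, adjusted p = 0.957). The low value was in the library with low short genes, and the strains overlapped. Of the 42 proteasome genes, 0 were called here by edgeR and by DESeq2, 4 had an unadjusted p under 0.05 and the median was -0.05, whereas 28 were lower in rpc128-1007[-] than in wt (median -0.45) and 27 were higher in [RBS1] than in rpc128-1007[-]. For [RBS1] against wt, a replicate block in the fit gave 4 lower, a gene-length offset 1 and both together 9. Of all genes, 542, 350 and 714 were lower in those fits. Both together also gave 1 proteasome gene higher.

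Hexose transporter genes split in direction. HXT7, a high-affinity glucose transporter, had 113, 118 and 178 CPM in [RBS1] libraries, against 26.7, 26.3 and 31.9 CPM in wt libraries (2.27, SE 0.25, adjusted p = 7.54e-05). HXT6, its near-identical neighbour, had 94.3, 108 and 147 CPM in [RBS1] libraries, against 25.2, 22.1 and 29.2 CPM in wt libraries (2.19, SE 0.25, adjusted p = 0.000112), and reads of this pair may have been split or dropped between the copies. HXT2, another high-affinity transporter, had 1074, 1152 and 1125 CPM in [RBS1] libraries, against 436, 468 and 482 CPM in wt libraries (1.27, SE 0.15, adjusted p = 0.00016). In each of these genes the [RBS1] libraries lay above the wt libraries without overlap, a condition of their place among the 12 highest genes. The low-affinity transporter HXT1 went the other way, with 174, 217 and 243 CPM in [RBS1] libraries, against 360, 320 and 383 CPM in wt libraries (-0.75, SE 0.15, adjusted p = 0.00852). HXT4 had 102, 102 and 147 CPM in [RBS1] libraries and 36.8, 36.6 and 65.7 CPM in wt libraries (1.34, SE 0.35, adjusted p = 0.028), and its call was lost without [RBS1] replicate 3 (adjusted p = 0.0775), wt replicate 1 (0.0919) or wt replicate 2 (0.106). In all, 5 of 26 tested genes of hexose transport were higher, among them GAL2, the galactose permease, and 4 were lower, among them MTH1, a repressor of HXT genes, and HXK2, hexokinase (19.2% and 15.4%, against 6.53% and 4.29% of all genes). The counts were 3 higher and 2 lower without wt replicate 2, 3 higher and 4 lower without [RBS1] replicate 3, and 5 higher and 2 lower without [RBS1] replicate 2. GAL2 lost its call without [RBS1] replicate 3 (adjusted p = 0.0514) or wt replicate 2 (0.0562), MTH1 without [RBS1] replicate 2 (0.0641) or wt replicate 3 (0.0768), and HXK2 without [RBS1] replicate 1 (0.0528), [RBS1] replicate 2 (0.0711) or wt replicate 2 (0.0617). HXT2 was also 1.01 above rpc128-1007[-] (adjusted p = 0.000277) and HXT1 stood at -1.46 against it (adjusted p = 2.12e-05).

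**Figure D3:**
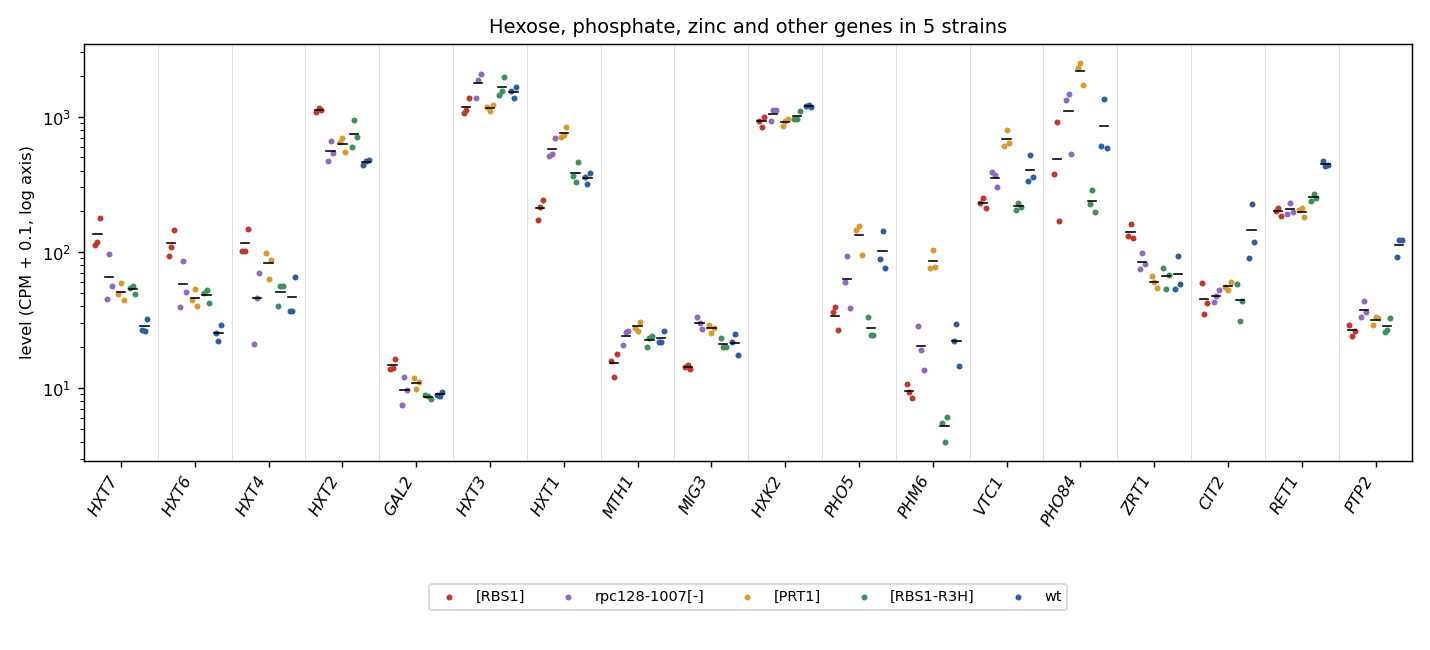
Levels of 18 genes of hexose transport, phosphate, zinc and other groups in each library of the 5 strains (CPM + 0.1, log axis), with points for libraries and black bars for means. HXT7, HXT6 and HXT2 were above wt in all [RBS1] libraries, and PTP2 was high only in wt.

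Phosphate genes were lower where they were called, and several varied widely between cultures. PHO5, the secreted acid phosphatase, had 35.9, 39.1 and 26.7 CPM in [RBS1] libraries, against 89.1, 143 and 75.8 CPM in wt libraries (-1.59, SE 0.31, adjusted p = 0.00629). VTC1, of the vacuolar polyphosphate polymerase, had 231, 250 and 210 CPM in [RBS1] libraries, against 336, 522 and 360 CPM in wt libraries (-0.82, SE 0.16, adjusted p = 0.00606). Both genes separated the strains, for PHO5 a condition of its place among the 12 lowest genes, and both hold CACGTG in their windows. PHM6, a phosphate-regulated gene, had -1.22 (adjusted p = 0.0169), lost without [RBS1] replicate 3 (adjusted p = 0.0531) or wt replicate 2 (0.0799). In all, 5 of 26 (19.2%, against 4.29% of all genes) were lower and 0 higher (median -0.31), with 2 lower without wt replicate 2 or without [RBS1] replicate 3 and 3 lower without wt replicate 3. With a gene-length offset in the fit, 6 were lower and 1 higher, and with a replicate block 12 were lower and 2 higher. SPL2, PHO12 and PHO11 had -1.49, -1.41 and -1.41 and were not called (adjusted p = 0.0644, 0.0769 and 0.0776). PHO84, the high-affinity phosphate transporter, had 376, 917 and 170 CPM in [RBS1] libraries and 606, 1358 and 589 CPM in wt libraries and was not called (-0.80, SE 0.51, adjusted p = 0.326). In [PRT1], PHO5 had 96 to 157 CPM and PHO84 1721 to 2484 CPM, and in [RBS1-R3H] they had 24.3 to 33.3 CPM and 197 to 287 CPM.

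Of 18 listed genes of inositol and phospholipid metabolism, 5 (27.8%) were higher and 0 lower, against 6.53% and 4.29% of all genes, and the median was 0.37. Their count lay between 4 and 6 when 1 library was left out and was 9 by DESeq2. CHO1, phosphatidylserine synthase, had 225, 218 and 250 CPM in [RBS1] libraries, against 140, 109 and 128 CPM in wt libraries (0.88, SE 0.09, adjusted p = 4.5e-05). ITR1, the inositol transporter, had 385, 409 and 442 CPM in [RBS1] libraries, against 250, 254 and 256 CPM in wt libraries (0.70, SE 0.08, adjusted p = 0.000156). FAS1, a fatty acid synthase subunit, and ACC1, acetyl-CoA carboxylase, were higher by 0.48 (adjusted p = 0.00256) and 0.40 (adjusted p = 0.0119). CHO1 and ITR1 did not overlap between the strains, and rpc128-1007[-] against wt gave -0.03 (adjusted p = 0.868) and 0.07 (adjusted p = 0.604) for them. INO1, inositol phosphate synthase, had 0.49 (adjusted p = 0.128).

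Mitochondrial genes were mixed. The carrier DIC1, which exchanges dicarboxylates, had 25, 20.9 and 25.2 CPM in [RBS1] libraries, against 67, 81.9 and 66.2 CPM in wt libraries (-1.59, SE 0.15, adjusted p = 2.46e-05), while PET9, the main ADP/ATP carrier, had 709, 567 and 787 CPM in [RBS1] libraries, against 383, 378 and 401 CPM in wt libraries (0.83, SE 0.11, adjusted p = 0.000463). CIT2, the peroxisomal citrate synthase, had 59, 35 and 42.4 CPM in [RBS1] libraries, against 91, 227 and 119 CPM in wt libraries (-1.67, SE 0.30, adjusted p = 0.00356), and the mutant [-] strain, at 43 to 52.8 CPM, was likewise below wt. ISU2, a scaffold for iron-sulfur clusters, had 18.9, 21 and 22.5 CPM in [RBS1] libraries, against 72.2, 68.9 and 61.5 CPM in wt libraries (-1.70, SE 0.13, adjusted p = 1.8e-06). The strains did not overlap for any of these 4 genes, with [RBS1] above wt for PET9 and below wt for the others. For DIC1, CIT2 and ISU2 this was a condition of their place among the 12 lowest genes. Of 74 tested mitochondrial ribosomal protein genes, 11 (14.9%, against 4.29% of all genes) were lower and 0 higher, with a median of -0.31, and 4 were lower without [RBS1] replicate 2 (median -0.21), the library that was low in short genes, and 5 without [RBS1] replicate 1 or without any 1 wt library. RML2 was among the lower ones (-0.65, adjusted p = 0.00453). Of 41 respiratory chain genes, 0 were called by edgeR and by DESeq2, 2 had an unadjusted p under 0.05 and the median was 0.13. That median was 0.37 without [RBS1] replicate 2 and -0.09 without [RBS1] replicate 3, and the medians of the 3 [RBS1] libraries against the wt mean were 0.18, -0.41 and 0.53. With a replicate block in the fit, 1 respiratory chain gene was higher and 3 lower. With a gene-length offset and the block, 6 were higher and 3 lower.

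Of the cytosolic ribosomal protein genes of the small subunit, 5 of 56 (8.93%) were lower and 0 higher (median -0.22), and of the large subunit genes 6 of 80 (7.5%) were lower and 0 higher (median -0.16), against 4.29% lower among all genes. DESeq2 gave 10 lower for each subunit. For the small subunit, 10 were lower without wt replicate 3, 2 without [RBS1] replicate 3 and 1 without any other library. For the large subunit, 7 were lower without wt replicate 3, 2 without [RBS1] replicate 2, 0 without wt replicate 1 and 1 without any other library. Of the ribosome assembly genes, 6 of 121 (4.96%, against 6.53% of all genes) were higher and 0 lower, and the median was 0.20. Of the 121, 116 had a positive log2 fold change and 35 an unadjusted p under 0.05, against 2973 and 1575 of all 5851 genes. The count of higher genes was 12 by DESeq2, 1 without [RBS1] replicate 1 or wt replicate 3, 2 without [RBS1] replicate 2 or wt replicate 2, and 9 without [RBS1] replicate 3. It was 28 with a replicate block, 50 with a gene-length offset and the block, and 0 with only these strains in the fit. Of all genes, 624, 782 and 196 were higher in those fits. NSA2, a factor of large subunit assembly, was among the 6 higher ones (0.45, SE 0.09, adjusted p = 0.00946).

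Other genes with large changes had varied roles. NAM8, an RNA-binding splicing factor of the U1 particle that also acts in meiosis, had 140, 114 and 142 CPM in [RBS1] libraries, against 33.9, 33.5 and 38.2 CPM in wt libraries (1.91, SE 0.12, adjusted p = 3.54e-07). PRB1, the vacuolar protease B, had 616, 610 and 660 CPM in [RBS1] libraries, against 182, 282 and 306 CPM in wt libraries (1.29, SE 0.27, adjusted p = 0.0101). ECM8, of unknown function, had 17.2, 22.5 and 19.2 CPM in [RBS1] libraries, against 3.35, 4.8 and 5.67 CPM in wt libraries (2.09, SE 0.27, adjusted p = 0.00025). All 3 separated the strains. YHR033W, a gene of unknown function, had 37, 40.4 and 40.4 CPM in [RBS1] libraries, against 16.5, 15 and 15.9 CPM in wt libraries (1.31, SE 0.12, adjusted p = 1.84e-05), and 38.1 to 49.1 CPM in rpc128-1007[-]. YGP1, a secreted glycoprotein of the starvation response, had 27.8, 21.6 and 39.7 CPM in [RBS1] libraries, against 112, 132 and 146 CPM in wt libraries (-2.13, SE 0.38, adjusted p = 0.00348). TDH1, a glyceraldehyde-3-phosphate dehydrogenase, had 15.8, 17.7 and 35.8 CPM in [RBS1] libraries and 48.8, 90.8 and 121 CPM in wt libraries (-1.92, SE 0.53, adjusted p = 0.0369), and its call was lost without [RBS1] replicate 1 (adjusted p = 0.134), [RBS1] replicate 2 (0.113), wt replicate 2 (0.0902) or wt replicate 3 (0.123).

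**Figure D4:**
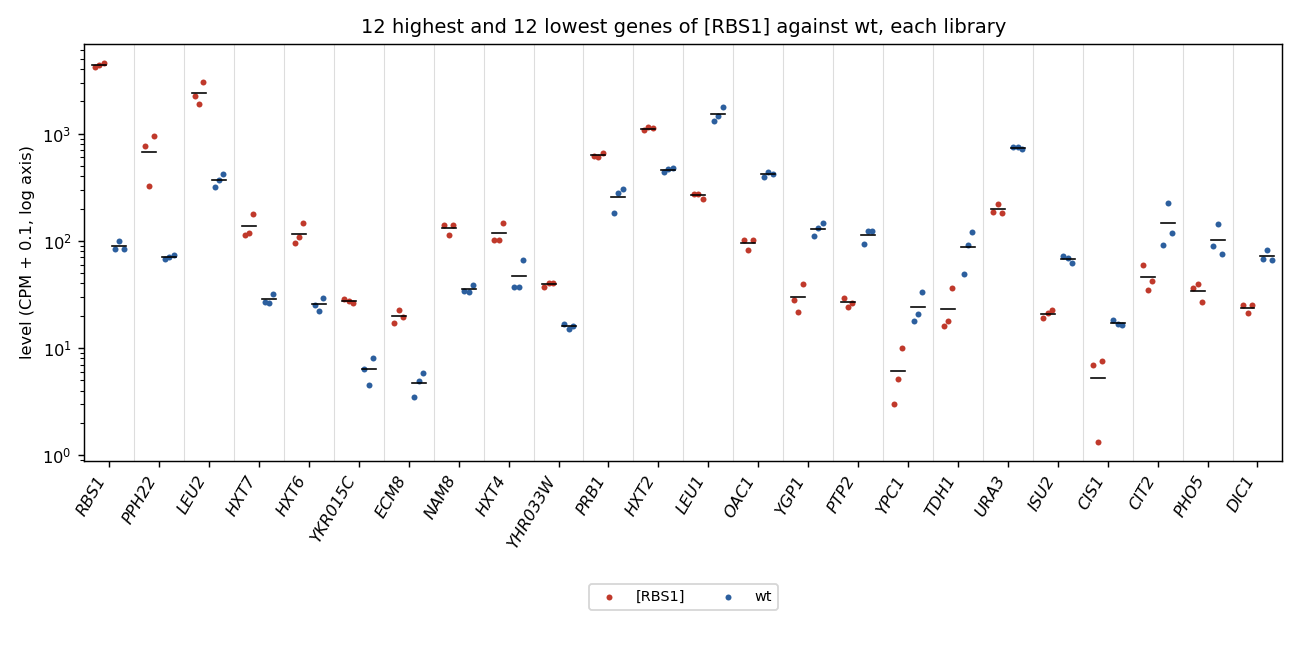
Levels of the 12 highest and 12 lowest genes of [RBS1] against wt in each library (CPM + 0.1, log axis), with points for libraries and black bars for means, [RBS1] left and wt right. The genes were chosen for having no overlap between the strains, so the separation is set by the choice. RBS1, PPH22 and LEU2 lead the higher side and LEU1 and OAC1 the lower side.

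Cell surface genes were called in both directions. TIR3, a cell wall mannoprotein, had 100, 116 and 117 CPM in [RBS1] libraries, against 46.8, 46.5 and 50.2 CPM in wt libraries (1.21, SE 0.15, adjusted p = 0.000222), whereas CWP1, another cell wall protein, had 14.4, 12.2 and 15.3 CPM in [RBS1] libraries, against 35.2, 45.3 and 39.1 CPM in wt libraries (-1.50, SE 0.22, adjusted p = 0.00077). CLB2, the main mitotic cyclin, had 143, 140 and 129 CPM in [RBS1] libraries, against 88.2, 82.8 and 78.3 CPM in wt libraries (0.72, SE 0.13, adjusted p = 0.00457), and was 1 of 2 higher among 38 cell cycle genes (5.26%, against 6.53% of all genes), where 1 was lower and the median was -0.06. The strains did not overlap for TIR3, CWP1 and CLB2. DED1, an RNA helicase of translation initiation, had 497, 516 and 480 CPM in [RBS1] libraries, against 301, 279 and 270 CPM in wt libraries (0.81, SE 0.09, adjusted p = 0.000112). It was the only 1 of 21 initiation genes called (4.76%, against 6.53% of all genes called higher). ZRT1, the high-affinity zinc transporter, had 133, 160 and 128 CPM in [RBS1] libraries, against 53.2, 94.1 and 58.5 CPM in wt libraries (1.03, SE 0.19, adjusted p = 0.005). Of the cell wall list, 8 of 36 (22.2%) were higher and 3 (8.33%) lower, against 6.53% and 4.29% of all genes, with 3 higher without wt replicate 1, 4 without [RBS1] replicate 1 and 5 without [RBS1] replicate 2, and 1 lower without [RBS1] replicate 2 or wt replicate 2. DIP5, a permease for glutamate and aspartate, was lower, with 47, 33.5 and 40.4 CPM in [RBS1] libraries, against 102, 108 and 84.8 CPM in wt libraries (-1.28, SE 0.20, adjusted p = 0.00134).

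**Figure D5:**
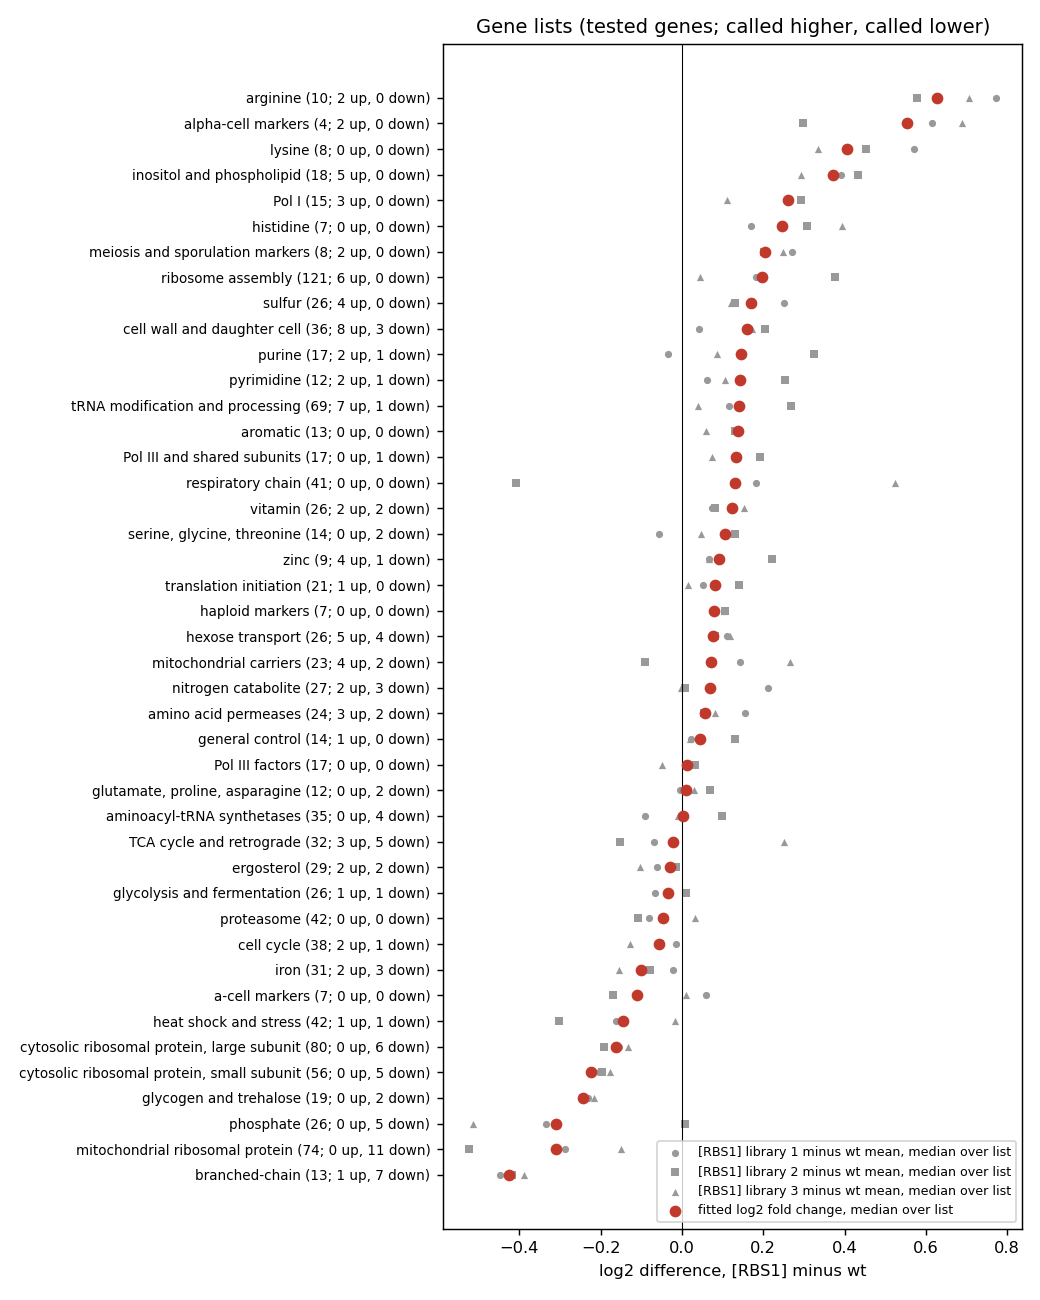
Median log2 difference of [RBS1] over wt for the gene lists, with the fitted median in red and the median of each [RBS1] library against the wt mean in grey, and with the number of tested, higher and lower genes beside each name. The branched-chain list lies lowest, at -0.42, and the arginine list highest, at 0.63.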

How the data were processed

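Poly(A)-selected RNA of 5 strains was sequenced with 3 cultures each. Per the submitters' processing notes the reads were mapped with TopHat2 2.0.11 and analysed with DESeq2 1.24.0, and the methods name the EF4 Ensembl genome and GenomicAlignments for counting. The authors deposited raw counts of reads per gene, without normalization. The counting mode and strandedness are not given in the sources used here, so overlapping and near-identical genes are uncertain. The series table held 0 columns without a sample label.

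Counts were analysed in R 4.3.3 with edgeR 4.0.16. Genes needed at least 1.06 CPM, a count of 10 in the median library, in 3 libraries and 15 counts in all, which left 5851 of 6600. All 15 libraries entered 1 quasi-likelihood fit with trimmed-mean scaling, and 3 contrasts of strain means were tested with Benjamini-Hochberg adjustment at 0.05. The p-values measure the spread between these cultures, and an exact permutation of 3 against 3 libraries could not go below 0.1. Names, positions and lengths came from R64, which matched 5917 identifiers; unmatched ones held 0.215% of counts. The fit was tested on simulated counts for [RBS1] against wt, with 5829 genes of which 200 differed 2-fold, and it called 89.5% of those and 5 others. The simulated libraries were independent, without a length trend or replicate block, and only well-counted genes were changed. These shares therefore need not hold for the real libraries or for changes under 2-fold.

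Replicate numbers were checked by the correlation of residuals from strain means. For same-numbered libraries it lay between 0.555 and 0.732 for [RBS1] against rpc128-1007[-] and between 0.155 and 0.249 for rpc128-1007[-] against wt. In both comparisons every library correlated most with the library of its own number. The fit reported has no term for replicate number in any comparison, so its SE and p-values ignore any pairing. The genes named were the plasmid and marker genes, the 12 highest and 12 lowest called genes without overlap and with a mean of at least 10 CPM, up to 4 called genes a direction in each list, and genes the study names. The members and lists were chosen with earlier results of these data known. Alternatives were other scalings (DESeq2 size factors, library totals), DESeq2 1.42.0, limma-voom (limma 3.58.1), no filter, 2 strains only, a replicate block, a length offset and each library left out.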

Additional observations from a re-analysis of the deposited data

How the results depend on the processing

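The direction of every called gene covered by the naming rule was the same in all 15 alternatives. This was largely set by the choice of genes, because the alternatives reuse the same counts and these genes were already called. Of the 633 called genes, 587 had no overlap between the strains and a mean of at least 10 CPM. Leaving out 1 library could hardly reverse such genes, so the unchanged direction is not an independent check. Of 141 called genes, 58 kept their call throughout, and 1750 of 2115 values stayed past the threshold. The count of 633 genes for [RBS1] against wt was 1166 with the replicate block, 1496 with the length offset and the block, 375 with only these strains in the fit, and 276 to 438 when 1 library was left out. Residuals of same-numbered [RBS1] and wt libraries correlated at 0.117, 0.048 and 0.279. For [RBS1] replicates 1 and 3 the same-numbered wt library correlated most, but replicate 2 had 0.083 with wt replicate 1. These values do not settle whether replicate numbers pair the libraries, and the fit reported has no block. For [RBS1] against rpc128-1007[-], 2220 genes were called with the replicate block, 2369 with the length offset and the block, and 1012 with only these strains. For rpc128-1007[-] against wt, the count was 1616 with the replicate block, 1790 with the length offset and the block, and 636 with only these strains. Distinct list genes called, 158 in the fit reported, numbered 317 with the replicate block, 426 with the length offset and the block, and 74 to 121 when 1 library was left out. With only these strains in the fit, fewer libraries estimate the spread; the other causes were not tested. DESeq2, limma-voom, median-ratio scaling, library totals, no filter and the length offset alone kept these totals within 1.5 times. Counts of single lists moved by more, as by DESeq2, which called 6 arginine genes against 2 and 21 other amino acid genes against 10, or by the length offset alone, which called 19 mitochondrial ribosomal protein genes against 11.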

Other observations

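Genes of sporulation, named by their symbols SPO, SPS, SPR and SMA and chosen after their values were seen, were mostly at low levels and higher in [RBS1]: 9 of 30 tested were called higher and 0 lower, against 6.53% and 4.29% of all genes, with a median log2 fold change of 0.37. SPS2, a protein of the spore wall, had 14.3, 12.6 and 13.2 CPM in [RBS1] libraries, against 5.35, 4.56 and 5.06 CPM in wt libraries (1.42, SE 0.24, adjusted p = 0.00256 by edgeR). SPR28, a sporulation septin, had 13.6, 12.5 and 13 CPM in [RBS1] libraries, against 6.39, 6.67 and 5.3 CPM in wt libraries (1.09, SE 0.20, adjusted p = 0.00451 by edgeR). Neither gene overlapped between the strains, and both were lower in rpc128-1007[-], at 4.14 to 5.02 CPM for SPS2 and 2.64 to 3.86 CPM for SPR28, than in [RBS1].

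MPT5, a PUF-family RNA-binding protein also chosen after its values were seen, had 131, 146 and 137 CPM in [RBS1] libraries, against 64.9, 72 and 81.5 CPM in wt libraries (0.92, SE 0.10, adjusted p = 0.000112 by edgeR). The fluoride exporter genes FEX1 and FEX2, near-identical copies whose reads cannot be told apart here, were higher by 0.88 and 1.05 on the log2 scale (adjusted p = 0.000257 and 8.28e-05 by edgeR).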
